A study of Mus musculus with 5 samples.

Results

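The genes described here encode kinases, adaptors and an effector that act directly downstream of the B-cell receptor. They were chosen by symbol: every array feature whose annotated gene symbol was Blk, Fyn, Fgr, Syk, Btk, Blnk, Plcg2 or Bank1 was taken. This gave 8 genes and 28 features, of 19087 genes and 33653 features with 1 gene symbol. Pro-B cells, early precursors of B cells, were cultured from fetal mouse liver, and the RNA of each of 5 samples was hybridised in Cy3 to an Agilent array of its own. Livers had been taken at embryonic day 16.5, and the cells grew with interleukin-7 over OP-9 stroma. In both groups the labels give 2 mM 4-hydroxytamoxifen over 24 hours, to switch on a Cre fused to an oestrogen receptor domain (ER-Cre), and then 4 days of further culture. The controls were Ebf+/fl cells, in which tamoxifen can delete 1 allele of the transcription factor gene Ebf1 (control 3 and control 6, n = 2). The other cells were Ebf fl/fl, in which it can delete both alleles, and are called deleted (deleted 4, 5 and 7, n = 3). Controls without any floxed allele or without tamoxifen were not analysed here, so what Cre and tamoxifen do alone was not measured. The labels do not name the promoter that drives Cre. Each title also carries a leading number, 111 for the controls and 93 for the deleted samples, and its meaning, not given in the labels, cannot be told apart from genotype.

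When the pre-B-cell receptor or the B-cell receptor is engaged, kinases of the Src family phosphorylate tyrosine motifs on the signalling chains Cd79a and Cd79b. Syk binds these motifs and phosphorylates the adaptor Blnk, which brings Btk and Plcg2 together at the membrane. Active Plcg2 makes the second messengers that open calcium stores and activate protein kinase C. In pre-B cells the same cascade carries the signal of the pre-B-cell receptor, which is built with the surrogate light chain.

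Levels are given as log2 of the intensity divided by the 75th percentile of its array, and a gene with several features is given by its brightest one unless stated. The 40th percentile of the array, between -5.54 and -5.34 on this scale, served as the limit below which a signal was not counted as measured. Sums of intensity per array lay between 66780400 and 79527100. Over the 13419 genes tested Pearson's r across genes was 0.979 to 0.982 within groups and 0.926 to 0.959 between them. For the targeted gene the Ebf1 probe for AK036716 was 8.11-fold lower in deleted cells (limma adjusted p = 0.0037), while the brightest probe, for NM_007897, and another one, for AK042875, had log2 fold changes of -0.25 and 0.44 and did not pass. With the mean of the 3 probes Ebf1 was called lower (-0.94, adjusted p = 0.0176). The position of these probes within the gene, and so whether they can report the deletion, was not determined here. Of 8 B-lineage markers 7 had a probe and all of these were above the limit. Of these, Vpreb1, Igll1, Rag1 and Cd24a were called lower. Cd79a, Cd79b and Pax5 had log2 fold changes of 0.01, -0.04 and -0.53 (SE 0.39, 0.23 and 0.25) and did not pass. The 7 markers summed to 982 to 1122 times the array's 75th percentile in controls and 360 to 550 times in deleted cells. In the same unit the myeloid markers summed to 4.97 to 16.6 in controls and 2.80 to 3.21 in deleted cells (8 of 10 with a probe, with Elane never above the limit), and the NK-cell markers to 4.76 to 6.03 and 7.18 to 8.58 (6 of 6, with Ncr1, Gzma and Eomes never above it). Each sum adds linear values, so the brightest gene weighs most. In the myeloid list this was Lyz2, which did not pass (adjusted p = 0.0554). Its log2 level was 2.91 ± 1.32 (SD, n = 2) in controls and 1.16 ± 0.17 (SD, n = 3) in deleted cells. Of 6 tested myeloid markers 1 was called higher and 2 lower. Within the NK-cell list Klrd1, the brightest gene, had a log2 fold change of 0.74 (adjusted p = 0.0300). Klrb1c had one of -3.11 (adjusted p = 0.00223), so members of that list moved in opposite directions. The T-cell markers summed to 0.482 to 0.956 and 1.07 to 1.38 (7 of 7, with Cd8a and Trat1 never above the limit), and the stromal markers to 0.673 to 0.709 and 0.844 to 1.17 (8 of 8, with Lum and Dcn never above it). Dendritic markers gave 0.560 to 0.604 and 0.589 to 0.644 (6 of 6, Siglech never above it) and erythroid markers 0.0644 to 0.0816 and 0.0683 to 0.0858 (3 of 5, Alas2 and Klf1 never above it). The part of these shifts in the results below was not tested.

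The comparison asked how expression of the cascade differed once both Ebf1 alleles could be deleted. Bank1, a scaffold protein of B cells, rose 5.71-fold in deleted cells and was the only one of the 8 genes to pass the test. Blk and Blnk had lower levels in all 3 deleted arrays than in both controls, and Plcg2 and Fgr higher ones, without passing. Syk and Btk, the kinases around which the cascade is built, had fold changes near 1 with groups that overlapped. Thus 1 of 8 genes was called higher and 0 lower by limma at an adjusted p under 0.05, against 8.58% of all tested genes called higher and 8.74% lower. At an unadjusted p under 0.05 there were 5 of 8, against 33.4% of all tested genes. The groups did not overlap in 5 of 8 genes, 3 higher and 2 lower in deleted cells, against 51.7% of all tested genes (30.5% higher and 21.2% lower). Fgr is 1 of the 3 higher genes and 1 of the 5 with an unadjusted p under 0.05. Both its controls lay below the limit of measurement, and it was tested only because of its deleted arrays. Its place in these counts is therefore not independent of that limit. The median log2 fold change was -0.01 over the 8 genes and 0.10 over all genes. These cultures are bulk samples, so fewer cells of a type and less RNA per cell cannot be told apart.

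**Figure D1:**
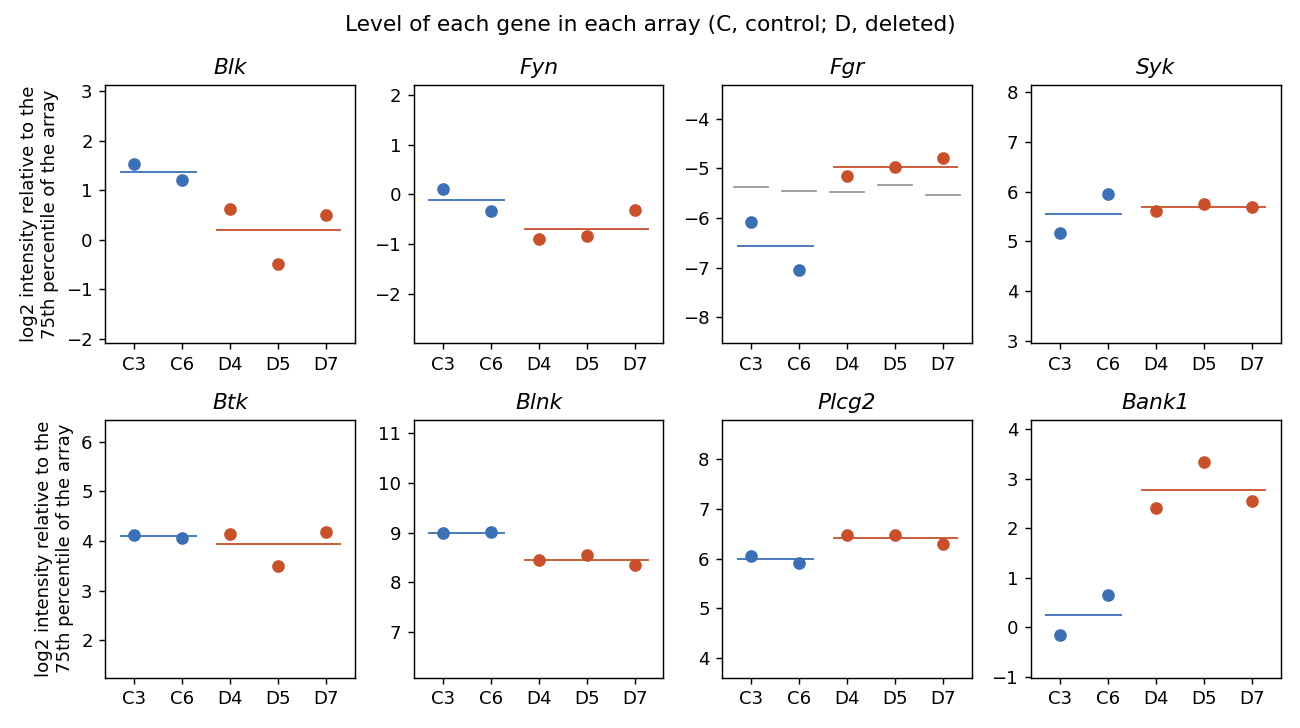
Level of each of the 8 genes in each array (log2 intensity over the 75th percentile of the same array; every panel spans the same range). Points are arrays (blue control, orange deleted), coloured lines are group means, and the grey dashes in the Fgr panel mark the 40th percentile of each array. Bank1 stood at -0.16 and 0.66 in controls and between 2.41 and 3.33 in deleted cells.

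Of the Src-family kinases, Blk, the member whose expression is most typical of B cells, had the largest difference towards lower levels among the 8 genes. Its level was 1.54 in control 3 and 1.20 in control 6, and 0.61, -0.49 and 0.49 in deleted 4, 5 and 7. Every deleted array lay below both controls, and deleted 5 was the lowest. The group means were 1.37 ± 0.24 (SD, n = 2) and 0.20 ± 0.61 (SD, n = 3), which gave -1.16 as the log2 fold change (SE 0.35, 95% interval -1.99 to -0.34), and Blk did not pass (limma adjusted p = 0.0645). Without deleted 5 the log2 fold change was -0.81 (adjusted p = 0.0556), and in none of the 15 alternative analyses did Blk pass (adjusted p 0.0538 to 0.292).

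Fyn, a broadly expressed kinase best known from T-cell receptor signalling, was measured by 10 features annotated to NM_008054. Averaged over these features its level was 0.14 in control 3 and -0.38 in control 6, and -0.90, -0.89 and -0.53 in deleted 4, 5 and 7. On these averages both controls lay above all deleted arrays, and the controls were further apart than control 6 and deleted 7. The SD over the 10 features within an array was 0.04 to 0.09, against an SD between array averages of 0.37 in controls and 0.21 in deleted cells, so arrays of a group differed by more than the features of 1 array. In the brightest feature, which the main analysis used, the groups overlapped, because deleted 7 read -0.33 there, the highest of its 10 features, and control 6 read -0.34. In the other 9 features the groups did not overlap, with lower levels in deleted cells, as in 21.6% of all tested features. All 10 features read the same gene on the same arrays, so they do not count as separate results. The log2 fold change was -0.58 for the brightest feature (SE 0.25, adjusted p = 0.160), -0.65 for the mean of the features (adjusted p = 0.0911) and -0.74 to -0.58 over the single features, none of which passed (adjusted p 0.0567 to 0.169, over 22647 tested features). For the brightest feature it was -0.36 without control 3 and -0.83 without deleted 7.

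Fgr, a Src-family kinase known mainly from myeloid cells, was close to the limit of measurement. Its intensity was 5.87 and 3.15 units in controls 3 and 6, both below the array's 40th percentile, and 10.9, 9.77 and 15.7 units in deleted 4, 5 and 7, all above it. The groups did not overlap, but the controls have only an upper bound, and against that bound Fgr was at least 1.36-fold higher in deleted cells. The fitted log2 fold change of 1.59 (SE 0.48, adjusted p = 0.0669) compares signals near background: with 16 units added to every intensity it was 0.58, and without the intensity trend in the variances it passed (adjusted p = 0.0408). Among the myeloid markers measured in the same arrays, Lyz1 and Itgam fell by 1.98 and 2.09 on the log2 scale (adjusted p = 0.0344 and 0.0490). Each missed the threshold under several alternatives, and Lyz1 stood at -1.14 without control 3. The marker Fcgr1, whose controls were below the limit, was higher by at least 8.62-fold (adjusted p = 0.0064). Fgr and Fcgr1 passed the filter only through the deleted arrays, so their tests are not independent of it.

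Syk, the kinase that reads the phosphorylated receptor chains, had a level of 5.16 in control 3 and 5.95 in control 6, and 5.61, 5.76 and 5.69 in deleted 4, 5 and 7. All deleted arrays lay between the controls. The log2 fold change was 0.13 (SE 0.24, 95% interval -0.44 to 0.71, adjusted p = 0.742), and it was -0.26 without control 3 and 0.53 without control 6. Its sign thus depended on which control was used, and changes within the interval cannot be told from none with these arrays.

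Btk, the Tec-family kinase that activates Plcg2, was also measured by 10 features, annotated to NM_013482. Its feature averages were 3.99 and 3.97 in the controls and 4.09, 3.47 and 4.13 in deleted 4, 5 and 7. Deleted 5 stood apart from the other 4 arrays in every feature: its 10 features read 3.36 to 3.57, while the lowest feature of any other array, in control 3, read 3.80. The log2 fold change was -0.15 in the brightest feature (SE 0.23, 95% interval -0.70 to 0.40, adjusted p = 0.693) and -0.16 to 0.05 over the 10 features, and without deleted 5 it was 0.07. Deleted 5 was also the array with the lowest Blk and the highest Bank1 level of its group, and the one with the lowest 75th percentile of intensity (306 units, against 389 to 430 in the others).

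**Figure D2:**
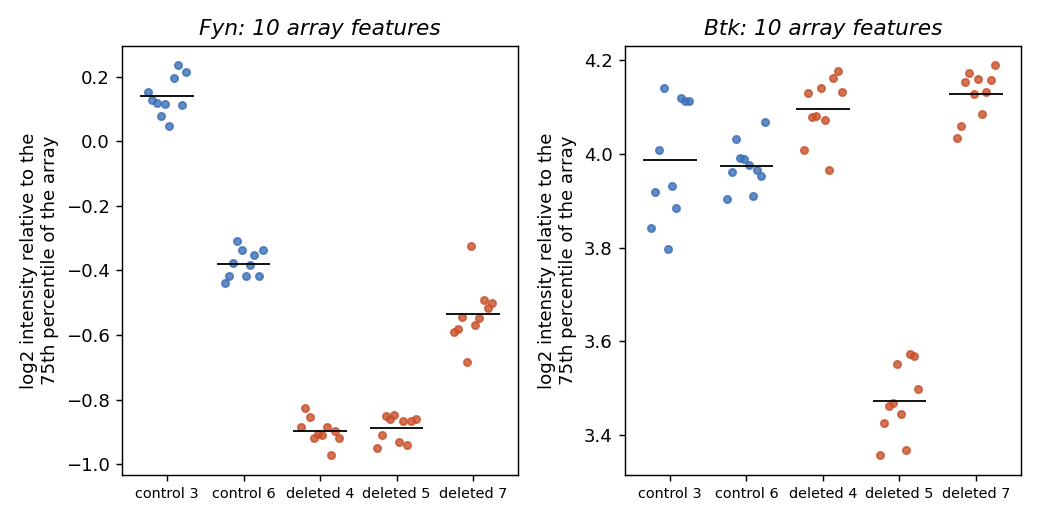
The 10 array features of Fyn (left) and Btk (right) in each array (log2 intensity over the 75th percentile of the same array; the vertical axes differ and do not start at 0). Points are features, blue in controls and orange in deleted cells, and black lines their averages. Features of an array lie close together, control 3 and control 6 are separate for Fyn, and deleted 5 is separate from all other arrays for Btk.

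Of the adaptors, Blnk, which links Syk to Btk and Plcg2, was among the brightest signals on every array. Its level was 8.98 and 9.01 in controls 3 and 6 and 8.45, 8.56 and 8.34 in deleted 4, 5 and 7. The controls lay above all deleted arrays, with group means of 9.0 ± 0.02 (SD, n = 2) and 8.45 ± 0.11 (SD, n = 3). The log2 fold change of -0.55 (SE 0.17, 95% interval -0.96 to -0.14) did not pass (adjusted p = 0.0737). It did pass in 4 of 15 alternatives, namely without scaling (-0.68, adjusted p = 0.0152), with quantile normalization (-0.84, adjusted p = 0.00837), with array weights (-0.56, adjusted p = 0.0444) and without deleted 5 (-0.60, adjusted p = 0.0469). The unscaled intensities were 200479 and 216091 units in controls and 115008 to 139096 in deleted cells. No saturation flags were at hand, and at most 0.249% of the features of an array were brighter.

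Bank1, which in B cells binds Src-family kinase and calcium-channel partners, was the member that changed most. Its brightest feature read -0.16 in control 3 and 0.66 in control 6, and 2.41, 3.33 and 2.54 in deleted 4, 5 and 7. Every deleted array lay above both controls, with group means of 0.25 ± 0.58 (SD, n = 2) and 2.76 ± 0.50 (SD, n = 3). The log2 fold change was 2.51 (SE 0.35, 95% interval 1.68 to 3.35, limma adjusted p = 0.00608), and it remained past the threshold in all 15 alternatives, between 1.85 with the mean of its features and 2.92 without control 6 (adjusted p 0.00389 to 0.0392). A second feature annotated to NM_001033350 was dimmer and read -4.61 and -3.03 in controls and -1.30, -0.64 and -1.11 in deleted cells. Its log2 fold change was 2.81 (SE 0.47), with an adjusted p of 0.0123 over all tested features, and lost its call only without deleted 5. The feature for AK041071 read between -7.40 and -6.63 in all arrays, under the limit, and was not tested. Over single features, 2 of 27 tested were called higher, both in Bank1, and 0 lower, against 6.84% and 7.69% of all tested features. Fyn and Btk each supplied 10 of these features, which repeat the same gene and are not separate measurements. The genes whose profile over the 5 arrays was most like that of Bank1 were Lrig3 and Ccr6, with root mean square differences of 0.19 and 0.21 between centred log2 levels. Lrig3 had a log2 fold change of 2.34 and Ccr6, a chemokine receptor, one of 2.24. Values near that of Bank1 follow from picking genes by likeness to its profile. Ccr6 missed the threshold without control 3, deleted 5 or deleted 7.

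The effector Plcg2, the phospholipase that turns the kinase signal into calcium release, differed by little, with each deleted array above both controls. Its level was 6.06 and 5.92 in controls 3 and 6 and 6.49, 6.47 and 6.29 in deleted 4, 5 and 7. The groups did not overlap, at 5.99 ± 0.10 (SD, n = 2) and 6.42 ± 0.11 (SD, n = 3). The log2 fold change was 0.43 (SE 0.15, 95% interval 0.07 to 0.78, adjusted p = 0.0972). It passed in 2 of 15 alternatives, median scaling (0.48, adjusted p = 0.0443) and quantile normalization (0.43, adjusted p = 0.0444). Without scaling the log2 fold change of Plcg2 was 0.30 (adjusted p = 0.269). Its paralogue Plcg1, which serves the T-cell receptor and growth factor receptors, stood at 3.98 ± 0.23 (SD, n = 2) in controls and 2.80 ± 0.25 (SD, n = 3) in deleted cells. It fell by 1.18 on the log2 scale (SE 0.19, adjusted p = 0.0107). Leaving out control 3 gave -1.01, which missed the threshold (adjusted p = 0.0809). The difference between these fold changes was not tested.

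**Figure D3:**
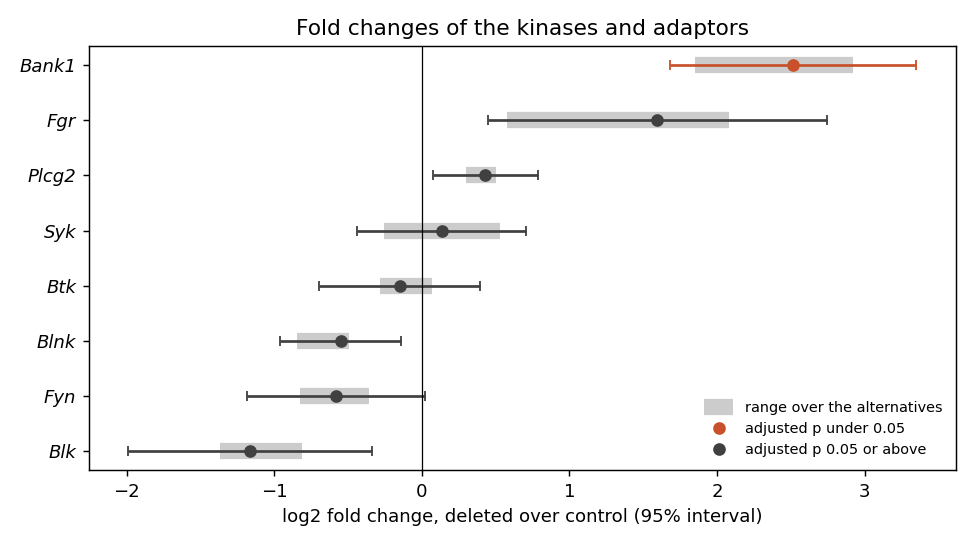
Log2 fold change of each gene, deleted over control, from the fit over all genes (points, with 95% intervals; orange where the adjusted p was under 0.05). Grey bars span the values over the alternative analyses, which cross 0 for Syk and Btk and stay on 1 side of it for the other 6 genes. The Fgr value is fitted against controls below the limit of measurement.

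Promoter windows of these genes were read for the letters that Ebf1 is known to bind, because Ebf1 is the deleted factor. The windows hold 250 bases before and 50 after the gene start (RefSeq, build GRCm38.p6), and 7 of the 8 genes matched, with Blk not among them and Syk having 2 windows. The EBF core CCCNNGGG reads the same on both strands and was present in 2 of 8 windows, those of Bank1 and Fyn, and in 13.7% of all 32851 windows. The E-box CAGNTG, bound by E proteins that act with Ebf1, was searched on both strands (CANCTG on the other) and was present in 6 of 8 windows and in 51.4% of all. No match overlapped one of the other motif. The windows of Bank1 (minus strand, chr3:136326017-136326316) and Fyn (plus strand, chr10:39369549-39369848) are shown as the ones with an EBF core, and that of Blnk (minus strand, chr19:40994172-40994471) for comparison as a core adaptor of the cascade without one. They run 5′ to 3′ along the gene, with both motifs in capitals.
Bank1: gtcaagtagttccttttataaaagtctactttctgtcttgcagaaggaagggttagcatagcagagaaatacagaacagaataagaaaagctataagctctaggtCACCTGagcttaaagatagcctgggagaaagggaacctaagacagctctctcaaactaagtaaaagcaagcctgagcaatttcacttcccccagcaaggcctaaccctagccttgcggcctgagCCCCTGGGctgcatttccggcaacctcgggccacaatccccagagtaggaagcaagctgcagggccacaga
Fyn: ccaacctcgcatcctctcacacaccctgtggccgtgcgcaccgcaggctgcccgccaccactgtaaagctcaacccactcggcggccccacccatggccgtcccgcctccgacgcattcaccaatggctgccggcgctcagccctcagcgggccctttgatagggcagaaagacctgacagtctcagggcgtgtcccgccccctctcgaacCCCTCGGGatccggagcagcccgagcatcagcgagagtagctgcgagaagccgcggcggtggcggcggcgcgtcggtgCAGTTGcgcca
Blnk: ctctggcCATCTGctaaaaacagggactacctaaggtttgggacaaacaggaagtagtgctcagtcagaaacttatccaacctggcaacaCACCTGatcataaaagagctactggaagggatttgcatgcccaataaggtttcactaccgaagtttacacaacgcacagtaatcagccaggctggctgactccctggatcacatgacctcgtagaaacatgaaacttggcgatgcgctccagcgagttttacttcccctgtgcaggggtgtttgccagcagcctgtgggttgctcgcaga
The EBF core of Bank1, CCCCTGGG, starts at -21 and that of Fyn, CCCTCGGG, at -39, counted from the gene start. Bank1, which rose, and Fyn, which did not pass and whose log2 fold change was -0.58, thus both hold the letters. In Blnk the capitals are E-boxes at -243 and -160. Such matches describe the letters of the window and were not tested as binding sites.

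Around these genes, 4 lists of other pathway genes were read from the same fit, in which 17.3% of all genes were called. Of 10 tested receptor chains and coreceptor genes 0 were higher and 5 lower, with a median log2 fold change of -1.49. The lower ones were the surrogate light chain genes Igll1, Vpreb1 and Vpreb2, Vpreb3, and Ifitm1, an interferon-induced membrane protein, with log2 fold changes of -4.39 to -2.92. Ifitm1 fell by 3.07 (SE 0.47, adjusted p = 0.00870). Cd79a and Cd79b, the chains on which the kinases act, had log2 fold changes of 0.01 and -0.04. Cd79a was at -0.67 without control 3 and 0.69 without control 6, and Cd79b at -0.20 and 0.12. The sign of both thus depended on which control was used. The 5 calls were 0 without control 3, 1 without control 6, and 2 without deleted 5, without the intensity trend or with robust variances.

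Of the other Src-, Syk- and Tec-family kinases and regulators of Src kinases, 6 of 10 tested were higher and 1 lower (median log2 fold change 0.82). Txk, a Tec-family kinase like Btk and known from T and NK cells, was below the limit in both controls and at least 11.9-fold higher in deleted cells (adjusted p = 0.00188). The Src-family gene Yes1 was likewise below it in controls and at least 2.56-fold higher (adjusted p = 0.0242). Txk and Yes1, which count among the 6 higher genes, passed the filter only through the deleted arrays. Their calls are therefore not independent of the filter. Ptpn6, which encodes the inhibitory phosphatase Shp-1, stood at 3.72 ± 0.13 (SD, n = 2) in controls and 5.26 ± 0.26 (SD, n = 3) in deleted cells, and rose by 1.54 on the log2 scale (SE 0.19, adjusted p = 0.00395). It missed the threshold with the mean of its probes (0.87, adjusted p = 0.0734). The Tec kinase gene Tec, Ptpn22 and Ptprc, which encodes the phosphatase Cd45, had log2 fold changes of 1.01, 1.29 and 0.58 and were the other higher genes. Tec was not called without control 3 or control 6 (adjusted p = 0.104 and 0.0777) or without scaling (0.0860), Ptpn22 not without control 6 or deleted 5 (0.0555 and 0.0581), and Ptprc not without any single array (0.0538 to 0.200), without scaling or without the intensity trend. Zap70, the T-cell relative of Syk, fell by 1.47 (SE 0.35, adjusted p = 0.0354), a call lost without control 3, control 6, deleted 4 or deleted 5 (adjusted p 0.0614 to 0.144), without the filter (0.0650) and without scaling (0.0665). The count of 6 higher was 3 without control 3, without control 6 or without deleted 5. Yes1 was not called without control 3, deleted 4 or deleted 5 (adjusted p 0.0664 to 0.125).

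Of 27 other adaptors and exchange factors 3 were higher and 4 lower (median log2 fold change 0.05). Lcp2, which encodes Slp-76, the T-cell and myeloid relative of Blnk, stood at -0.69 ± 0.14 (SD, n = 2) in controls and -3.31 ± 0.30 (SD, n = 3) in deleted cells, and fell by 2.61 (SE 0.26, adjusted p = 0.00227). Lat, the membrane adaptor that works with Slp-76 in T cells, fell by 2.59 (SE 0.35, adjusted p = 0.00570), while Grap2, the adaptor Gads that joins them, rose by 1.86 (SE 0.16, adjusted p = 0.00147). Pik3ap1, the B-cell adaptor for PI3-kinase, fell by 1.20 on the log2 scale (SE 0.24, adjusted p = 0.0203) and was not called without control 3 (adjusted p = 0.114) or deleted 5 (0.0607). The others called were Vav2 (-0.81), Dok2 (1.02) and Sla2 (0.91). Vav2 lost its call when any single array was left out, with quantile normalization (adjusted p = 0.0628), without the filter (0.0764) and without the intensity trend (0.0569). Dok2 lost its call without control 3, control 6, deleted 4 or deleted 5. Dok2 also lost it without scaling (adjusted p = 0.0620), with quantile normalization (0.0566), without the filter (0.0536) and without the intensity trend (0.0783). Sla2 lost its call without control 6, without deleted 5 (adjusted p = 0.0534), without scaling (0.0893) and with the mean of its probes (0.44, adjusted p = 0.212). Higher genes numbered 5 with median scaling, robust variances or the 60th percentile filter and 6 with array weights. Without control 6 the counts were 1 higher and 3 lower, and without scaling 1 and 4. Without control 3 they were 3 and 2, and without deleted 5 they were 2 and 2.

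In the calcium, protein kinase C and NF-kappaB arm 5 of 21 tested genes were higher and 1, Plcg1, lower (median log2 fold change 0.33). Malt1, a signalling protease of the NF-kappaB branch, Nfatc1, a calcium-regulated transcription factor, and Rasgrp3, a Ras activator, had log2 fold changes of 1.01, 0.99 and 0.95 (adjusted p = 0.0300, 0.0135 and 0.0146). Stim1, the calcium sensor of the endoplasmic reticulum, and Orai1, the channel it opens, had log2 fold changes of 0.82 and 0.81. Stim1 was not called without control 3, control 6, deleted 4 or deleted 5, with the mean of its probes (adjusted p = 0.0525) or without the intensity trend (0.0673). Orai1 was not called without control 3, control 6, deleted 4 or deleted 7, without scaling (adjusted p = 0.206) or without the intensity trend (0.0689). The count of 5 higher was 1 without control 3 or control 6, 2 without deleted 4 or without the intensity trend, and 3 without deleted 5, and 1 to 2 genes were lower over the alternatives except without control 3, where 0 were. Malt1 lost its call without control 3, control 6, deleted 4 or deleted 5 and without the intensity trend (adjusted p 0.0532 to 0.177), Nfatc1 without control 3 (0.0872) and Rasgrp3 without control 6 (0.0661).

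**Figure D4:**
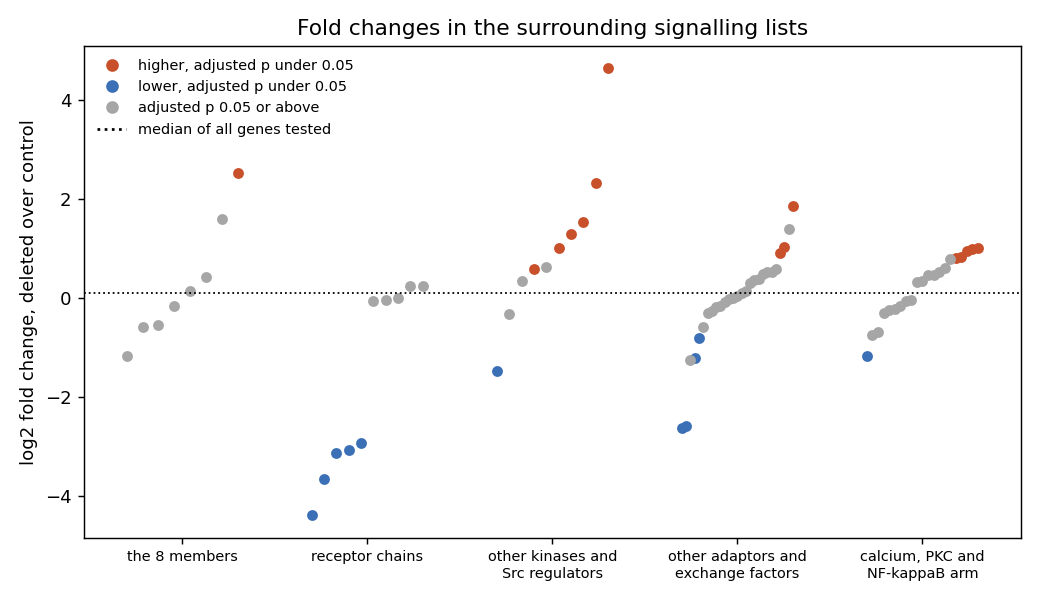
Log2 fold change, deleted over control, of the 8 genes and of each tested gene of the 4 surrounding lists, sorted within a list (1 point per gene; orange higher and blue lower at an adjusted p under 0.05, grey otherwise). The dotted line is the median of all genes tested, 0.10. The called genes of the list of receptor chains and coreceptor genes, Ifitm1 among them, are all lower, between -4.39 and -2.92. Txk is the highest point at 4.64, a fitted value against controls below the limit of measurement.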

How the data were processed

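The authors deposited 1 linear intensity per feature and array. The submitters' processing notes name Agilent Feature Extraction, while its version and its background and flag settings were not at hand. The platform annotation gave 1 symbol for 33653 of 45018 features, several for 56 and none for 11309. All features entered the scaling. Log2 intensities minus the array's 75th percentile entered a two-sided test in limma (version 3.58.1, R 4.3.3; eBayes with an intensity trend) over 13419 genes with at least 2 arrays above the 40th percentile, with Benjamini-Hochberg adjustment and a threshold of 0.05. A second fit took 22647 features singly. The fit was tested on simulated data. Where a group lay wholly at or below the 40th percentile, that percentile gave the "at least" fold. The number of arrays limits the precision, and probe sequences were not used, so cross-hybridisation between related kinases was not tested. The labels do not say that samples came from separate embryos, so p-values measure only the spread between these samples, which may be technical. Genes named are the 8 genes, Ebf1, up to 4 called genes of each list with the largest change, and the 2 nearest profiles of called members; other list genes were named after their values were seen. The genes and lists were chosen with earlier results of these data known.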

Additional observations from a re-analysis of the deposited data

How the results depend on the processing

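Bank1 was called higher in all 15 alternatives. The number of the 8 genes called higher was 2 instead of 1 with median scaling, with quantile normalization (each adding Plcg2) and without the intensity trend (adding Fgr). The number called lower was 1 instead of 0 without scaling, with quantile normalization and with array weights (Blnk each time), and 0 to 1 when single arrays were left out. Of single features of these genes 1 was called lower without scaling and with quantile normalization and 2 with array weights; with single arrays left out, 1 to 2 were higher and 0 to 1 lower. Over all genes 1151 were higher and 1173 lower, with 669 higher without scaling and 761 without the trend. Leaving out single arrays gave 390 to 968 higher and 312 to 1035 lower, the fewest without control 3. Without scaling the median log2 fold change of all genes moved by -0.13, and 38.6% of calls were higher, against 49.5%. Fgr was not tested with the filter at the 60th percentile. For 47 genes (the 8 genes, Ebf1, Pax5, Cd79a, Cd79b, the called genes of the pathway and marker lists, and the profiles nearest to Bank1) the alternatives gave 699 values, of which 584 kept their side of the threshold, 107 lost a call and 8 gained one, and the cause was not tested. No paired analysis was possible because the groups share no replicate numbers.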
